A study of Mus musculus with 21 samples.

Results

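The comparison described here is the response of an insulin-secreting cell line to 12 h of PERK kinase activation, set against vehicle. Its members are 4 of the 21 arrays of the study, chosen by their titles. They are 2 arrays of MIN6m9 cells carrying Fv2E-PERK that had received 1 nM of the dimerizer AP20187 (AP) for 12 h. These are set against 2 of the same Fv2E-PERK cells with a mock treatment, the vehicle ethanol, with no harvest time stated in the labels. All 4 arrays thus carry the Fv2E-PERK construct, and the labels name neither the promoter that drives it nor the number of clones behind the line. Arrays of the same cells after 6, 24 and 48 h of AP (n = 2 each) are used for comparison over time, and 2 of wild-type MIN6m9 mock cells enter only the estimate of the spread. The other arrays of the study, on fatty acids, are not used here.

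MIN6m9 is a subclone of a mouse insulinoma line with properties of the pancreatic beta cell. PERK is an endoplasmic reticulum (ER) kinase that normally senses unfolded protein and then phosphorylates the translation factor eIF2alpha. This lowers general protein synthesis but favours translation of a few mRNAs, among them that of the transcription factor ATF4, and starts the integrated stress response (ISR). In Fv2E-PERK the kinase domain is joined to a module that pairs on addition of AP, so that PERK signalling can be switched on without unfolded protein in the ER. Beta cells, which make proinsulin in large amounts, are known to depend on PERK.

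The values are log2 spot signals minus the 75th percentile of the array, so that a level of 0 is a probe at that percentile, and a difference of 1 is a 2-fold change. The signal at the 75th percentile was 513.2 to 551.2 on the AP 12 h arrays and 391.0 to 463.4 on the mock arrays, and 53 to 53.3% and 46.8 to 49.0% of probes were well above background. Replicates correlated at 0.996 at 12 h and 0.994 in mock across probes, which are not independent replicates. The number of arrays limits the precision, and since no label says that replicates came from separate cultures, a p-value here reflects just how far these samples lie apart, which can be technical spread. All 4 arrays lay on 1 slide.

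The choice of scale sets many directions. On the same arrays, 7 spike-in control probes, measured against the 75th percentile, lay at 3.19 and 2.99 on the AP 12 h arrays and at 3.64 and 3.93 on the mock arrays. Scaling on these probes adds 0.70 to every log2 difference of AP 12 h minus mock. A fall of less than 0.70 in that comparison turns into a rise. The probes lay at 3.19 and 3.04 at 6 h of AP, 2.68 and 3.04 at 24 h and 3.56 and 3.11 at 48 h. Differences between times therefore shift by other amounts. The shift also differs between the replicates of a group, so spike-in scaling changes the spread of every entry as well. Which scale is closer to the RNA content of the cells was not tested. In bulk samples of this kind, a change in the number of cells and a change in RNA per cell cannot be told apart.

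The labelled cell type was checked against markers. Of 10 beta cell markers, 8 were well above background on all 4 arrays, and Ucn3, which marks mature beta cells, was dim on all 4. The summed linear level of these markers was 1490 to 1650 times the 75th percentile at 12 h, against 2200 to 2430 in mock. Of 6 alpha cell markers Gcg and Ttr were above background on all 4 arrays, with a summed level of 126 to 133 at 12 h against 397 to 412 in mock, while others, Irx1 and Irx2 among them, were dim on all 4. The summed level was 2.23 on both AP 12 h arrays against 3.80 to 3.90 for the 5 delta, PP and epsilon cell markers, 15.8 to 18.3 against 19.3 to 24.0 for the 12 acinar and duct cell markers, and 6.86 to 6.97 against 12.4 to 14.3 for the 10 mesenchymal and endothelial markers. For the 7 immune markers on the array it was 23.2 to 23.7 at 12 h against 19.6 to 23.5 in mock, for the 9 heart muscle markers 1.83 to 2.09 against 0.615 to 0.680, and for the 12 skeletal muscle markers 0.855 to 0.901 against 1.42 to 1.48. Many of these markers were dim on all 4 arrays. They were 2 of the delta, PP and epsilon markers, 7 of the acinar and duct markers and 6 of the mesenchymal and endothelial markers. So were 3 of the immune, 5 of the heart muscle and 6 of the skeletal muscle markers. Of 3 tested immune markers 2 fell, both at least 2-fold, and none rose, so a sum can hide the direction of its members. The part of these other cell types in the results was not tested. The gene of the activated kinase itself, Eif2ak3, had levels of 1.80 and 1.69 at 12 h and 1.80 and 1.73 in mock. Its change of -0.02 ± 0.15 did not pass the test (limma adjusted p = 0.90), and since nothing says whether its probe detects the Fv2E-PERK transgene, it checks nothing.

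At 12 h a large share of the measured transcriptome differed from mock. Of 23402 entries tested, where an entry is 1 probe for each gene or unnamed transcript, 15821 changed (67.6%) at a limma adjusted p under 0.05 over all entries. Of all entries 6367 (27.2%) rose and 9454 (40.4%) fell. A rise of at least 2-fold was seen for 2626 (11.2%) and a fall of at least 2-fold for 3107 (13.3%). The median change was -0.19, with the 5th percentile at -1.47 and the 95th at 1.58. With spike-in scaling the median became 0.51, and 10074 entries were called higher and 1467 lower, so that 87.3% of calls were rises, against 40.2% on the main scale. All 6367 rises remained called as rises there, 1466 of the falls remained called as falls, and 3842 of the falls turned sign without 1 being called as a rise. Without the filter on dim probes 29.1% of calls were rises. The plot of change against level shows the calls on both sides of 0 over the whole range of signal.

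**Figure D1:**
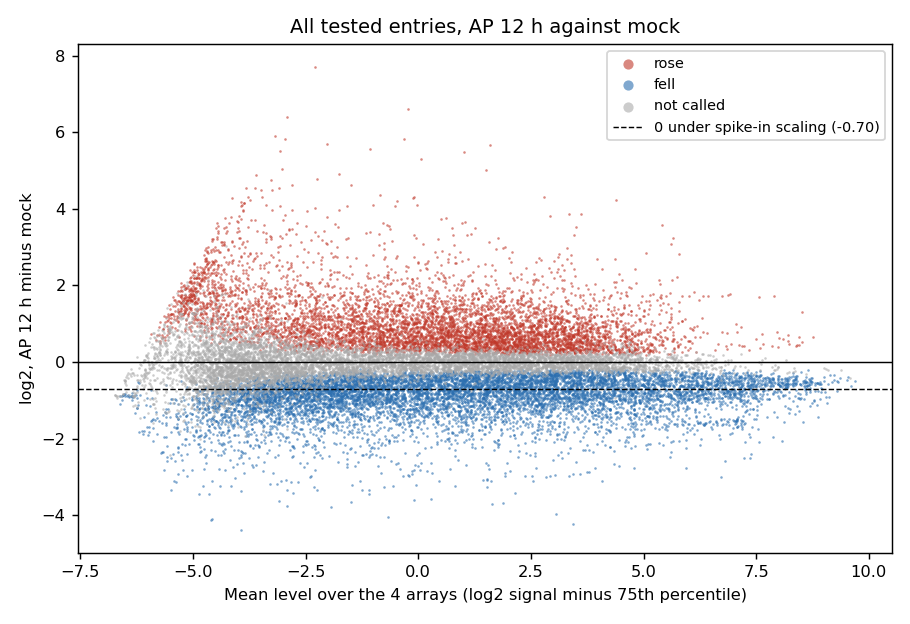
Each point is 1 of 23402 entries, with its mean level over the 2 AP 12 h and 2 mock arrays on the horizontal axis (log2 signal minus the 75th percentile) and its log2 difference, AP 12 h minus mock, on the vertical axis. Red entries rose, blue ones fell and grey ones were not called. The dashed line at -0.70 marks the value that becomes 0 with spike-in scaling, and a large part of the blue points lies between it and 0.

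The transcription factors of the ISR rose together. Of 8 tested, 7 rose, 5 of them at least 2-fold, none fell, and the median change was 1.29 against -0.19 over all entries. Atf3, a stress-induced bZIP factor, had levels of 4.45 and 4.41 at 12 h, against -1.18 and -1.30 in mock. The arrays of the 2 groups lay far apart, and the difference of 5.67 ± 0.08 (standard error) is a 51.1-fold rise (limma adjusted p = 2.2e-08). Jdp2, a repressor of the same family, was at 1.40 and 1.22 at 12 h against -1.25 and -1.37 in mock, and Cebpb was at 4.58 and 4.60 against 2.29 and 2.42. These are rises of 2.62 ± 0.12 and 2.24 ± 0.10. Cebpg, a partner of ATF4 on DNA, rose by 1.57 ± 0.10, and the stress-induced cofactor gene Nupr1 by 1.01 ± 0.15.

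Atf4, the central factor of the response, which is controlled mainly at translation, was at 8.25 and 8.41 at 12 h against 7.72 and 7.68 in mock, a rise of 0.63 ± 0.12 (limma adjusted p = 0.0014). Ddit3, which encodes the pro-apoptotic factor CHOP, was at 3.84 and 3.96 against 3.06 and 3.07. Its rise of 0.84 ± 0.08 was among the smaller ones of the list. Atf5, at 6.83 and 6.85 against 6.67 and 6.68, did not pass the test (0.17 ± 0.09, adjusted p = 0.13), although it was called as a rise with spike-in scaling, with quantile normalization and with normexp.

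ATF4 binds DNA with C/EBP partners at composite sites, so the promoters of genes of the ISR and amino acid lists were searched for the motif TGATGNAAN on either strand. The windows run from 250 bases before to 50 bases after each RefSeq start site (build GRCm38.p6). The 4 genes of these lists with the largest rise that hold it and were well above background on all 4 arrays are Atf3, Chac1, Trib3 and Jdp2, whose windows are shown with the motif in capitals, on the strand of the gene from 5′ to 3′.
Atf3, chr1:191183284-191183583, minus strand: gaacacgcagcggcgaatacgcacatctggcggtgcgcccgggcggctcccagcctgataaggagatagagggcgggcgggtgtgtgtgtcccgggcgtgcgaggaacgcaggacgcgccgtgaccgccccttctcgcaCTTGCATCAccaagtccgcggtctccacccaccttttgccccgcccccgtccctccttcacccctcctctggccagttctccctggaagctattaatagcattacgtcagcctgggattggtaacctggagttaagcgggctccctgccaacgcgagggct
Chac1, chr2:119350992-119351291, plus strand: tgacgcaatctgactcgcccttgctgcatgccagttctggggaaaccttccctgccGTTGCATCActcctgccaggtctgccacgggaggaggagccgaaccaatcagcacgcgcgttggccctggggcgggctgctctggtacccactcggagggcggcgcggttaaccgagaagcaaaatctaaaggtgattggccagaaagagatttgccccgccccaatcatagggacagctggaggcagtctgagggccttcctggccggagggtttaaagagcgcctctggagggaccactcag
Trib3, chr2:152344011-152344310, minus strand: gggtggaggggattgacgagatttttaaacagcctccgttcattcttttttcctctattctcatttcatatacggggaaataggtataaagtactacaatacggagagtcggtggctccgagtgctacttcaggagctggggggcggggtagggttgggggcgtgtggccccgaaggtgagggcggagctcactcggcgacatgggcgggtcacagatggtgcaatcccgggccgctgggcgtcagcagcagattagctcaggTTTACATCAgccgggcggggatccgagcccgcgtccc
Jdp2, chr12:85599166-85599465, plus strand: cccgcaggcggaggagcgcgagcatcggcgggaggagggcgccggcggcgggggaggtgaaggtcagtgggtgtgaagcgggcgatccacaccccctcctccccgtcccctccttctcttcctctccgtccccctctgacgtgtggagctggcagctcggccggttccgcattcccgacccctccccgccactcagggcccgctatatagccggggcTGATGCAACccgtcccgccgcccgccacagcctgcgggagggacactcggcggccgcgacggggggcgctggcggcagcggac
The motif starts at position -111 relative to the start site in Atf3, -194 in Chac1, 13 in Trib3 and -33 in Jdp2. It reads TGATGCAAG in Atf3, TGATGCAAC in Chac1 and Jdp2 and TGATGTAAA in Trib3, on the strand opposite to the gene in all but Jdp2.

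Across lists, the motif was found in 6 of 18 genes with a window among the ISR transcription factors, brakes and hormones (33.3%), in 6 of 25 for amino acid synthesis and transport (24.0%) and in 5 of 13 aminoacyl-tRNA synthetase genes (38.5%). Of 27025 genes with a window in the whole table, 1215 held it (4.50%). Of 11338 tested genes with a window, 338 held it (2.98%). Among tested genes it was found for 3.49% of those that rose and 4.79% of those that rose at least 2-fold. The shares were 2.77% of those that fell and 2.21% of those that fell at least 2-fold, and 1 of 16 ER chaperone genes held it (6.25%). The shorter core TTGCATCA, searched on both strands and overlapping the first motif where its variable base is C, was found in 27.8%, 16.0% and 30.8% of the 3 ISR-related sets and in 1.03% of all genes. Pck2, Nupr1, Asns and Got1 also rose and hold the longer motif. These matches describe letters in a window and show no binding.

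Of 8 genes that restrain the ISR, translation or growth, 6 rose and 2 fell, with a median of 1.62. Chac1, a glutathione-degrading enzyme, was at 7.22 and 7.11 at 12 h against 4.03 and 4.12 in mock. It rose by 3.09 ± 0.11, or 8.52-fold (limma adjusted p = 5.8e-07). Trib3, a pseudokinase that inhibits AKT and ATF4, was at 7.18 and 7.22 against 4.26 and 4.48, a rise of 2.83 ± 0.12. Ppp1r15a, the stress-induced subunit of the eIF2alpha phosphatase (GADD34), was at 4.94 and 4.93 against 2.85 and 2.95, a rise of 2.03 ± 0.08. Its constitutive counterpart Ppp1r15b rose by 1.73 ± 0.10, and Eif4ebp1, a repressor of cap-dependent translation, by 1.51 ± 0.10. Sesn2, an inhibitor of mTORC1, rose by only 0.39 ± 0.10.

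In contrast, Ddit4 (REDD1), another mTORC1 inhibitor that hypoxia also induces, was at 4.52 and 4.51 at 12 h against 5.45 and 5.48 in mock and fell by 0.95 ± 0.08 (limma adjusted p = 2.0e-05). Dnajc3, an ER co-chaperone that inhibits PERK, was at 1.58 and 1.65 against 2.74 and 2.71 and fell by 1.11 ± 0.09. Neither was called with spike-in scaling, where their changes were -0.25 and -0.41.

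Of 5 secreted stress hormones, 2 rose and 1 fell, with a median of 0.10, or 0.73 with genes dim in 1 group at their bound and the gene dim in both left out. Adm2, an adrenomedullin-related peptide, was at 2.56 and 2.31 against 1.01 and 1.09 (1.39 ± 0.13). The hormone gene Fgf21 was well above background on both AP 12 h arrays and on no mock array, and it was at least 3.37-fold higher at 12 h (limma adjusted p = 3.2e-05). Such a bound takes, on each dim array, the higher of 2 signals, the probe's own and that of the weakest probe called well above background. Gdf15, at -4.20 and -3.57 against -4.13 and -3.83, and the granule peptide gene Vgf, at 6.46 and 6.34 against 6.36 and 6.39, did not pass the test. Stc2 was dim on all 4 arrays, and the call of a fall was lost without AP 12 h replicate 1 (adjusted p = 0.052) and without mock replicate 2 (adjusted p = 0.070).

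The kinases and targets at the head of the pathway moved less. Among 13 genes for eIF2alpha kinases and subunits of eIF2 and its exchange factor eIF2B, 6 rose and 1 fell, with a median of 0.19. Eif2s2, the beta subunit of eIF2, was at 6.89 and 7.19 at 12 h against 5.43 and 5.38 in mock (1.63 ± 0.13). Eif2b3 (eIF2B gamma) rose by 1.14 ± 0.08 and Eif2s1, which encodes eIF2alpha itself, by 0.67 ± 0.12. The gamma subunit gene Eif2s3x fell by 0.40 ± 0.10, but another of its probes was called the other way. Nck1, an adaptor reported to bind eIF2B, rose by 0.36 ± 0.10, but did not pass the test without AP 12 h replicate 2 (0.28, adjusted p = 0.078), without mock replicate 2 (0.28, adjusted p = 0.082) and in a fit of the 4 arrays alone (adjusted p = 0.051).

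**Figure D2:**
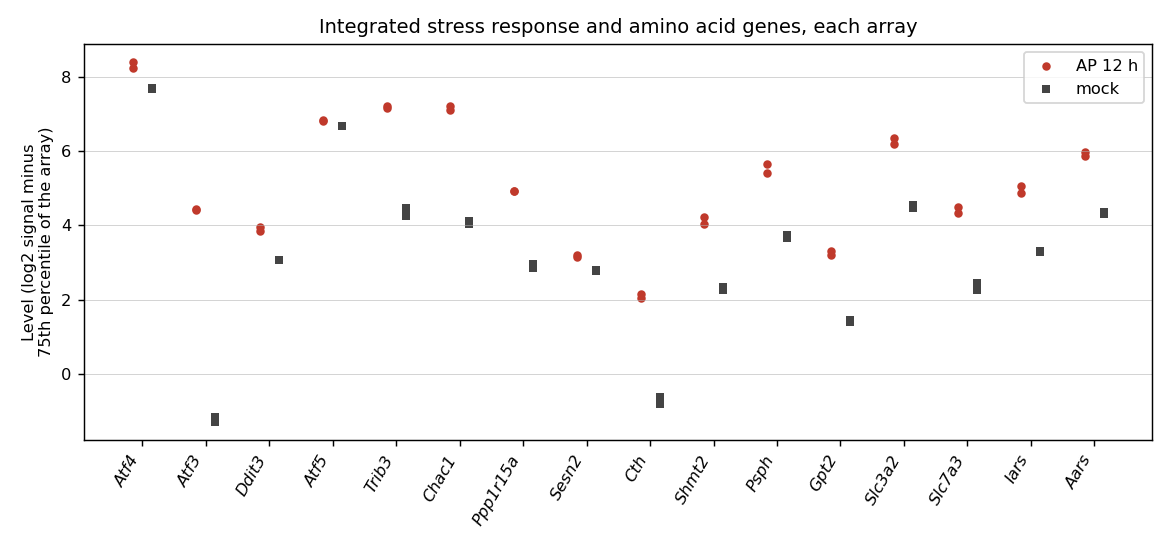
Level of 16 genes of the ISR, of amino acid synthesis and transport and of tRNA charging on each array, in log2 signal minus the 75th percentile, with the 2 AP 12 h arrays as red circles left of the 2 mock arrays as grey squares. The AP 12 h points lie above the mock points for each gene shown, by the least for Atf5 (0.17) and the most for Atf3 (5.67).

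Amino acid supply genes, the best-known targets of ATF4, rose in large part. Of 17 tested genes of amino acid and one-carbon synthesis 15 rose and 2 fell, with a median of 0.95. Cth, the last enzyme of cysteine synthesis from methionine, was at 2.04 and 2.15 at 12 h against -0.64 and -0.82 in mock. It rose by 2.83 ± 0.14, or 7.09-fold (limma adjusted p = 1.6e-06). The mitochondrial serine hydroxymethyltransferase gene Shmt2 rose by 1.84 ± 0.12, and the serine synthesis gene Psph, at 5.41 and 5.65 against 3.75 and 3.67, by 1.82 ± 0.17. Gpt2, a mitochondrial alanine transaminase, was at 3.30 and 3.19 against 1.39 and 1.46, and rose by 1.82 ± 0.13. Outside the rule for named genes, and chosen after its values were seen, the ATF4 target Asns (asparagine synthetase) was at 7.18 and 7.27 against 6.49 and 6.46, a rise of 0.75 ± 0.12. The 2 falls were those of Glul, glutamine synthetase, which was at 1.33 and 1.27 against 3.43 and 3.42 (-2.12 ± 0.07, limma adjusted p = 3.5e-07), and Cbs (-0.44).

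Of 13 tested amino acid transporters of the plasma membrane, 7 rose, each at least 2-fold, and 2 fell, with a median of 1.01, or 1.22 with the gene dim in 1 group at its bound and the gene dim in both left out. Slc7a11, the light chain of the cystine transporter, was above background on both AP 12 h arrays and dim on both mock arrays, and it was at least 9.55-fold higher at 12 h. Slc7a3, a carrier of cationic amino acids, was at 4.33 and 4.50 against 2.45 and 2.26 (2.06 ± 0.21). Slc3a2, the shared heavy chain of several exchangers, was at 6.35 and 6.20 against 4.46 and 4.56 (1.76 ± 0.10), and the glycine carrier Slc6a9 rose by 1.55 ± 0.14. Slc38a4 went the other way, at 2.06 and 2.23 against 4.01 and 3.61, and fell by 1.67 ± 0.15. The enzymes that charge tRNAs in the cytosol followed the synthesis genes. Of 20, 16 rose and 3 fell, with a median of 0.92 and rises of 1.69 ± 0.11 for Iars, 1.59 ± 0.09 for Aars, 1.49 ± 0.11 for Tars, 1.48 ± 0.12 for Cars and 1.44 ± 0.27 for Yars. Qars (-1.07), Kars (-0.55) and Wars (-0.51) fell.

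The ER's own folding genes, which in a full unfolded protein response rise through ATF6 and XBP1, were lower. All 18 ER chaperones and folding enzymes tested fell, 11 of them at least 2-fold, with a median of -1.04. P4hb, a protein disulfide isomerase, was at 4.28 and 4.15 at 12 h against 5.78 and 5.67 in mock, a fall of 1.51 ± 0.08 (limma adjusted p = 2.6e-06). Ero1b, the beta cell's ER oxidase, was at 4.70 and 4.64 against 6.14 and 5.99 (-1.40 ± 0.13). Calr (calreticulin), at 4.25 and 3.96 against 5.52 and 5.48, fell by 1.39 ± 0.09. Pdia3 and Pdia6 fell by 1.38 ± 0.09 and 1.35 ± 0.15. The most used marker of ER stress, Hspa5 (BiP), which the rule for named genes did not pick, was at 7.02 and 7.17 against 7.78 and 7.70 (-0.65 ± 0.10), and its sign turned with spike-in scaling (0.05) and quantile normalization (0.04). With spike-in scaling the list's median was -0.35, with 5 of 18 called lower and none higher.

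Of 15 genes of ER-associated degradation and ER stress sensing, 2 rose and 9 fell, with a median of -0.54, or 0.15 with spike-in scaling, where 4 were called higher and none lower. Edem1 (-1.12 ± 0.16), the ubiquitin ligase adaptor gene Sel1l (-1.07 ± 0.14), Wfs1 (-1.03 ± 0.11), which is mutated in a monogenic diabetes, and the lectin gene Os9 (-0.85 ± 0.10) fell. Creb3l2, an ER-bound transcription factor, was at 0.88 and 0.51 at 12 h against -0.52 and -0.21 in mock and rose by 1.06 ± 0.15. Herpud1, which ATF4 is known to control, was the other rise (0.75), and Xbp1 did not pass the test (0.22, limma adjusted p = 0.12); both were picked after their values were seen.

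Immediate early genes, transcription factor genes that respond within minutes to growth factor and stress signals, were still raised at 12 h. Of 22 tested genes of this class and of MAP kinase feedback, 18 rose, 15 of them at least 2-fold, and none fell, with a median of 1.84, or 1.5 with the gene dim in mock at its bound. Egr2 was at 2.61 and 2.55 at 12 h against -3.11 and -3.35 in mock, a rise of 5.81 ± 0.22 or 56.0-fold (limma adjusted p = 5.9e-07). Ier2 was at 2.11 and 1.94 against -2.20 and -1.95 (4.10 ± 0.11), and Egr1 at 5.39 and 5.13 against 1.81 and 1.65 (3.53 ± 0.21). The AP-1 genes Junb (3.53 ± 0.33) and Fosb (3.25 ± 0.18) rose to a like extent. Egr4, from the same family as Egr1, stood among the largest rises of all genes, at 3.91 and 3.61 against -1.61 and -1.85 (5.49 ± 0.12).

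The NF-kB genes and chemokines rose almost throughout. Of 14 tested, 13 rose, each at least 2-fold, and 1 fell, with a median of 2.03. With the 4 genes dim in 1 group at their bound the median was 1.73. Relb, a subunit of the non-canonical pathway, was at 5.02 and 4.87 at 12 h against 0.64 and 0.61 in mock, a rise of 4.32 ± 0.07 or 19.9-fold (limma adjusted p = 7.2e-08). Its partner Nfkb2 was at 2.87 and 2.61 against -0.49 and -0.67 (3.32 ± 0.13). The interferon-inducible chemokine gene Cxcl10 was at 0.82 on both AP 12 h arrays, was dim on both mock arrays, and was at least 29.8-fold higher at 12 h. The other chemokine gene among the largest changes, Ccl2, was at least 3.25-fold higher and Rel, a canonical subunit, at least 2.49-fold higher. The remaining fall was that of Cx3cl1 (-0.31).

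Of 16 tested genes that interferons induce, 3 rose and 6 fell, with a median of 0.11, against rises of 27.2% and falls of 40.4% over all entries. Bst2 (-1.34 ± 0.12), the antiviral enzyme gene Rsad2 (-1.08 ± 0.18), Ifit3 (-1.05 ± 0.10) and the immunoproteasome gene Psmb8 (-0.86 ± 0.14) fell, and B2m, the light chain of MHC class I, was at 1.06 and 1.23 at 12 h against 0.33 and 0.07 in mock and rose by 0.95 ± 0.13. With spike-in scaling 8 of the 16 were called higher and 1 lower.

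The largest concerted fall was in glycolysis and the genes that hypoxia-inducible factor (HIF) controls. Of 23 tested, 20 fell, 17 of them at least 2-fold, and 1 rose, with the lowest median of the 34 lists, -1.71. Bnip3, a mitophagy receptor, was at 5.20 and 5.26 at 12 h against 8.19 and 8.27 in mock, a fall of 3.0 ± 0.07 (limma adjusted p = 3.1e-07). Pdk1, a kinase that inhibits pyruvate dehydrogenase, was at 0.27 and 0.10 against 3.04 and 2.91 (-2.79 ± 0.09). The glycolytic enzyme gene Aldoc was at 3.12 and 3.08 against 5.83 and 5.82 (-2.73 ± 0.07), and Pgam1 at 5.59 and 5.42 against 8.09 on both mock arrays (-2.58 ± 0.07). The glucose carrier gene Slc2a1 (GLUT1), at 1.72 and 1.69 against 4.37 and 4.15, fell by 2.56 ± 0.13.

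The median of the list stayed below 0 on the other scales. With spike-in scaling the median of the list was -1.01, with 16 called lower and 3 higher, and it was -1.44 with quantile normalization and -1.3 with normexp. Outside the list, other genes that HIF is known to induce were among the 12 largest falls of genes above background on all 4 arrays. Slc16a3, the lactate exporter MCT4, was at 1.58 and 1.07 at 12 h against 5.55 and 5.58 in mock. Its fall of 4.24 ± 0.17 left 0.0528 of the mock signal (limma adjusted p = 6.9e-07). Adm, adrenomedullin, was at -2.74 and -2.64 against 1.31 and 1.40 (-4.04 ± 0.10), the mitochondrial adenylate kinase gene Ak4 at -0.08 and -0.33 against 3.54 and 3.45 (-3.70 ± 0.12), and Ankrd37 at 0.43 and 0.44 against 3.88 and 3.83 (-3.42 ± 0.11). The 1 rise in the list was that of Txnip (2.51), an inhibitor of glucose uptake that glucose itself induces, and Vegfa, a classic HIF target, did not pass the test (0.02, limma adjusted p = 0.87). Both were named after their values were seen. Whether the oxygen, glucose or density of the cultures differed between the groups is not stated in the labels.

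Respiratory chain genes fell less. Of 26 oxidative phosphorylation genes 21 fell and 1 rose, with a median of -0.63. Ndufa4 was at 3.80 and 4.15 at 12 h against 5.61 and 5.52 in mock (-1.59 ± 0.13), and Ndufa1 (-1.54 ± 0.10), Sdhc (-1.35 ± 0.08), Cox6c (-1.23 ± 0.11) and Sdhd (-1.02 ± 0.10) were the next in size. The median was -0.15 with quantile normalization and 0.07 with spike-in scaling, where 3 members were called lower and 2 higher.

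**Figure D3:**
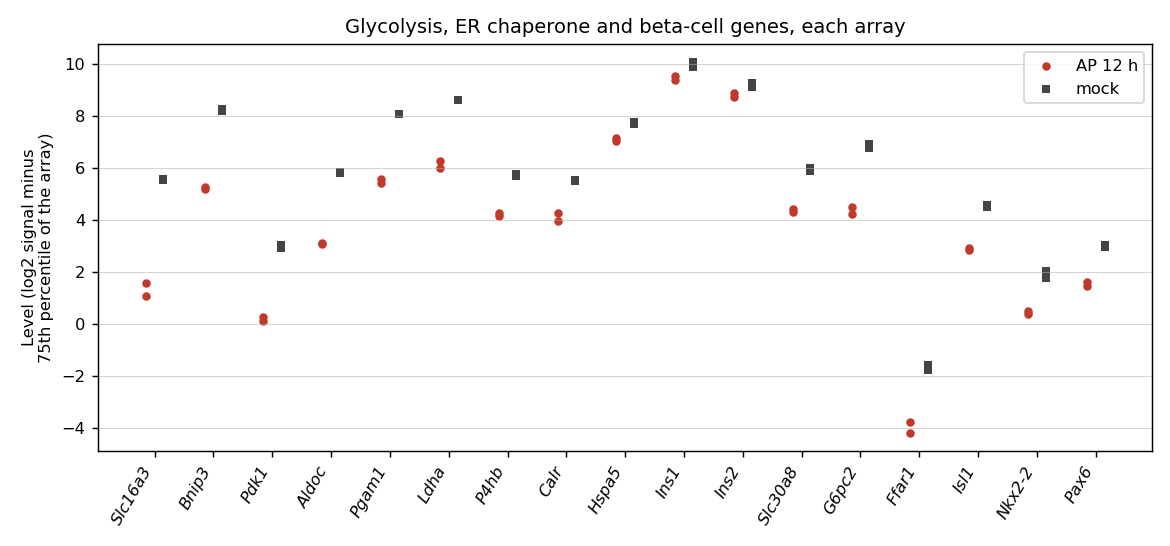
Level of 17 genes of glycolysis and hypoxia, of ER folding and of the beta cell on each array, in log2 signal minus the 75th percentile, with the 2 AP 12 h arrays as red circles left of the 2 mock arrays as grey squares. The AP 12 h points lie below the mock points for each gene shown, by 4.24 for Slc16a3 and by 0.39 for Ins2.

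Genes that define the beta cell were lower. Of 15 tested transcription factors 11 fell and 2 rose, with a median of -0.71. Isl1 was at 2.84 and 2.91 at 12 h against 4.58 and 4.51 in mock, a fall of 1.67 ± 0.11 (limma adjusted p = 6.7e-06). Nkx2-2, at 0.49 and 0.36 against 1.76 and 2.02 (-1.46 ± 0.10), Pax6, at 1.62 and 1.46 against 2.96 and 3.03 (-1.45 ± 0.09), and Nkx6-1 (-1.21 ± 0.08) fell as well. Pdx1, an activator of the insulin gene, fell by 0.98 ± 0.08, to 2.44 and 2.28 against 3.35 and 3.34. Hnf4a, mutated in a monogenic diabetes, went up, to 2.68 and 2.62 against 1.59 and 1.41 (1.15 ± 0.09). With spike-in scaling the list had a median of -0.01, with 3 called higher and 3 lower, and Isl1, Nkx2-2 and Pax6 remained called as falls (-0.97, -0.76 and -0.76).

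All 16 genes of insulin and prohormone processing fell, 8 of them at least 2-fold, with a median of -0.99, or -0.92 without Ucn3, which was dim on all 4 arrays. With spike-in scaling 4 of the 16 were called lower, with a median of -0.29, and with quantile normalization 12 were, with a median of -0.48. The insulin genes were among the smaller changes. Ins1 was at 9.38 and 9.53 at 12 h against 9.87 and 10.06 in mock (-0.51 ± 0.11, limma adjusted p = 0.0040), and Ins2 at 8.73 and 8.88 against 9.12 and 9.28 (-0.39 ± 0.13, limma adjusted p = 0.025). Both turned sign with spike-in scaling (0.19 and 0.31) and quantile normalization (0.07 and 0.18), and the call of Ins2 was lost without AP 12 h replicate 1 and without mock replicate 2 (each -0.31, adjusted p = 0.13). The 2 genes are close in sequence, so their probes may share signal.

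Several granule genes had larger changes. Slc30a8, the zinc transporter of the insulin granule, was at 4.30 and 4.41 at 12 h against 5.99 and 5.88 in mock (-1.58 ± 0.10). Scg5, the chaperone of the convertase PC2, fell by 1.38 ± 0.09, the convertase inhibitor gene Pcsk1n by 1.37 ± 0.11 and Pcsk2, which encodes PC2, by 1.29 ± 0.09. Of these 4, all but Pcsk2 (-0.60, adjusted p = 0.052) remained called with spike-in scaling.

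Of 13 genes of glucose sensing, the ATP-sensitive potassium channel and surface receptors, 8 fell, 7 of them at least 2-fold, and 1 rose, with a median of -1.03, or -1.14 with the 2 genes dim in 1 group at their bound. G6pc2, the islet glucose-6-phosphatase, was at 4.23 and 4.49 at 12 h against 6.91 and 6.75 in mock (-2.47 ± 0.11, limma adjusted p = 1.0e-06). Ffar1, the long-chain fatty acid receptor GPR40, was at -4.20 and -3.80 against -1.77 and -1.61 (-2.31 ± 0.20). The receptor of the incretin GLP-1, Glp1r, was at -2.36 and -2.52 against -0.66 and -0.63 (-1.80 ± 0.09). Trpm5 (-1.49 ± 0.19), a cation channel, and Gipr (-1.36 ± 0.15), the other incretin receptor, fell too. All of these 5 remained called as falls with spike-in scaling. The channel's subunits diverged: Kcnj11 rose by 1.09 and Abcc8 fell by 1.14, both named after their values were seen.

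Among 15 exocytosis genes 8 fell and 2 rose, with a median of -0.62, or 0.08 with spike-in scaling. Rph3al, a Rab effector, was at -3.49 and -3.55 at 12 h against -1.41 and -1.34 in mock (-2.14 ± 0.12), and the calcium sensor gene Syt7 at -2.01 and -2.12 against -0.23 and -0.16 (-1.87 ± 0.08). Cplx1 (-1.55 ± 0.14) and Sytl4 (-1.46 ± 0.12), which act in vesicle docking and fusion, fell as well. Of the markers of other islet cells that were above background on all 4 arrays, Ttr, which encodes the carrier transthyretin, fell by 1.76 ± 0.10, and the hormone genes Gcg, Sst and Ppy had changes of -1.12, -0.98 and -0.79. The hormone gene Ghrl, at 0.51, did not pass the test (limma adjusted p = 0.075). With spike-in scaling Gcg, Sst and Ppy were at -0.43, -0.28 and -0.09.

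Lipid synthesis genes, most of them targets of the SREBP factors, were lower. Of 16 tested genes of fatty acid synthesis and desaturation 15 fell and 1 rose, with a median of -0.96. Scd2, a desaturase, was at 5.28 and 5.10 at 12 h against 7.09 and 7.03 in mock (-1.87 ± 0.11), and Acly, which makes cytosolic acetyl-CoA, was at 6.37 and 6.46 against 7.96 on both mock arrays (-1.55 ± 0.08, limma adjusted p = 2.5e-06). Scd1 (-1.54 ± 0.13), Fads1 (-1.37 ± 0.13) and Elovl1 (-1.24 ± 0.09) followed. In sterol synthesis and uptake 15 of 24 fell and 2 rose, with a median of -0.47. Fdps (-1.10 ± 0.10), Stard4 (-1.09 ± 0.09) and Ebp (-1.04 ± 0.09) fell. With spike-in scaling the medians were -0.27 and 0.23.

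Of 19 fatty acid oxidation genes 14 fell and 1 rose, with a median of -0.40, or 0.29 with spike-in scaling, where none was called lower. Cpt2 (-1.30 ± 0.09), Hadh (-1.24 ± 0.12), Acaa2 (-0.79 ± 0.08) and Etfb (-0.65 ± 0.08) were among the largest changes. Of 12 genes of lipid droplets and triglyceride synthesis 4 fell, 1 rose and 7 did not pass the test, against falls of 40.4% and rises of 27.2% over all entries. Hilpda, a hypoxia-induced droplet protein, was at -0.45 and -0.28 at 12 h against 1.28 and 1.20 in mock (-1.61 ± 0.09), Lpin1 fell by 0.96 ± 0.09, Lpin2 by 0.75 ± 0.14 and the droplet coat gene Plin2 by 0.42 ± 0.08. The acyltransferase gene Dgat2 rose by 1.20 ± 0.09, to 3.71 and 3.64 against 2.46 and 2.48. The list's median was -0.16.

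Of 23 replication and S phase genes 18 rose, 10 of them at least 2-fold, and none fell, with a median of 0.98. Mcm5, a subunit of the replicative helicase, was at 5.94 and 5.87 at 12 h against 4.40 and 4.42 in mock (1.49 ± 0.08, limma adjusted p = 2.2e-06). Cdc6, a loader of that helicase, was at 1.52 and 1.45 against -0.01 and 0.09 (1.44 ± 0.10), and Uhrf1 (1.34 ± 0.10), Mcm4 (1.17 ± 0.10) and Gins1 (1.16 ± 0.10) rose likewise. Of 23 genes of mitosis 9 rose and 6 fell, with a median of 0.08, against rises of 27.2% and falls of 40.4% over all entries. With spike-in scaling 15 of the mitosis genes were called higher and none lower, with a median of 0.78. Kif23 (1.27 ± 0.09) and Ttk (0.67 ± 0.14) rose, and Ccnf (-1.06 ± 0.07), Birc5 (-0.98 ± 0.08) and Cenpf (-0.78 ± 0.17) fell.

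Regulators of the G1 phase also went both ways, with 4 of 11 rising and 5 falling and a median of 0.04. These shares are near the 27.2% of rises and 40.4% of falls over all entries. With spike-in scaling 6 of the G1 regulators were called higher and 1 lower. Ccnd2, the main D cyclin of beta cells, was at 3.45 and 3.29 at 12 h against 2.17 and 1.87 in mock (1.35 ± 0.12). Of the CDK inhibitors, Cdkn2c was at 3.0 on both AP 12 h arrays against 4.82 and 4.85 (-1.84 ± 0.09), Cdkn2a fell by 1.15 ± 0.10 and Cdkn2b rose by 1.13 ± 0.08. Cdkn1a (p21) rose by 0.65 ± 0.07, but another of its probes was called the other way, and with the mean over its probes it was not called (0.12, adjusted p = 0.30).

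Among 14 tested targets of p53, 8 rose and 5 fell, with a median of 0.45, and with spike-in scaling 9 were called higher and none lower, with a median of 1.15. Plk2, above background on both AP 12 h arrays and on 1 of 2 mock arrays, was at -0.79 and -0.76 at 12 h against -3.14 and -3.89 in mock (2.74 ± 0.26). Bbc3, the killer protein PUMA, which CHOP can also induce, was at 4.71 and 4.68 against 2.90 and 2.94 (1.77 ± 0.08, limma adjusted p = 1.1e-06). Btg2 rose by 1.17 ± 0.10, while Perp (-1.32 ± 0.26) and Zmat3 (-1.15 ± 0.12) fell. Of 18 apoptosis regulators 8 rose and 3 fell, with a median of 0.23. Hrk, a BH3-only killer protein, was at -0.57 and -0.46 at 12 h, was dim on both mock arrays, and was at least 11.8-fold higher at 12 h. Bcl2l11 (BIM) was at -0.70 and -0.77 against -2.51 and -2.63 (1.83 ± 0.13), and Bmf rose by 1.02 ± 0.13. The survival gene Mcl1 rose by 0.83 ± 0.11, and Bik, another killer gene, was at -2.81 and -2.79 against -0.69 on both mock arrays and fell by 2.11 ± 0.09.

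Of 18 tested targets of NRF2, a factor PERK can phosphorylate, 12 fell and 2 rose, with a median of -0.59, or 0.11 with spike-in scaling. Nqo1 was at 0.10 and 0.21 at 12 h against 2.01 and 1.90 in mock (-1.80 ± 0.10), and the ferritin gene Ftl1 at 7.59 and 7.52 against 8.89 on both mock arrays (-1.34 ± 0.07). Prdx1 (-1.23 ± 0.09), G6pdx (-1.05 ± 0.08) and Gclm (-1.04 ± 0.08), which keep thiols reduced, fell too.

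In other folding and turnover systems the changes were smaller, and the counts below stand against rises of 27.2% and falls of 40.4% over all entries. Of 14 mitochondrial chaperones and proteases 6 rose and 4 fell, with a median of -0.04. The mitochondrial HSP70 gene Hspa9 was at 5.59 on both AP 12 h arrays against 4.78 and 4.65 (0.87 ± 0.07), and Timm44 (0.60 ± 0.09) and Clpx (0.59 ± 0.09) rose, while Hspd1 (-0.67 ± 0.10) and Hspe1 (-0.55 ± 0.11) fell. Of 15 cytosolic heat shock genes 8 fell and 2 rose, with a median of -0.30, or 0.40 with spike-in scaling and 0.19 with quantile normalization. Hsph1 (-0.83 ± 0.12), Dnajb1 (-0.58 ± 0.11), Hsp90ab1 (-0.57 ± 0.08) and Cryab (-0.55 ± 0.13) fell, and their regulator Hsf1 rose by 0.58 ± 0.08. Of 20 proteasome subunits 9 fell, a share near that over all entries, and 2 rose. Their median was -0.21, with 0.05 under quantile normalization and 0.49 under spike-in scaling, and the largest falls were those of Psma2 (-0.80 ± 0.11) and Psma5 (-0.76 ± 0.12), with Psmb4, Psmb5 and Psmb2 between -0.61 and -0.57.

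In the joint list of 26 autophagy and lysosome genes, 12 fell, 8 of them at least 2-fold, and 10 rose, with a median of -0.02. Over all entries 40.4% fell, 13.3% at least 2-fold, and 27.2% rose. Among the largest changes were falls of lysosomal genes, namely Ctsb, at 4.67 and 4.68 at 12 h against 6.38 and 6.25 in mock (-1.64 ± 0.07), Hexa (-1.63 ± 0.09), Ctsl (-1.48 ± 0.13) and Lamp2 (-1.44 ± 0.07). They encode cathepsins, a hexosaminidase subunit and a membrane protein, and these 4 remained called as falls with spike-in scaling.

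Among ribosomal protein genes the direction depended on the scale. Of 34 tested 33 fell and none rose, with a median of -0.61, and Rpl14 (-1.03 ± 0.08), Rps2 (-0.94 ± 0.07), Rpl28 (-0.83 ± 0.07) and Rpl27 (-0.82 ± 0.07) were among the largest changes. With spike-in scaling none of the 34 was called and the median was 0.09, and with quantile normalization the median was -0.01. Host transcripts of small nucleolar RNAs, which carry translation-linked decay signals, rose instead. Of 6 tested of 13 in the list, 5 rose, and the median was 1.96. Snhg17 was at 2.41 and 2.31 at 12 h against -1.34 and -1.40 in mock, a rise of 3.73 ± 0.12 or 13.3-fold (limma adjusted p = 3.5e-07). Snhg1 was at 4.66 and 4.91 against 1.94 and 2.03 (2.80 ± 0.12), and Snhg12 at 5.28 and 5.32 against 2.84 and 2.88 (2.44 ± 0.06). Snhg7 (1.47 ± 0.10) and Snhg6 (1.26 ± 0.12) rose too, and Snhg3 (-1.24) fell.

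**Figure D4:**
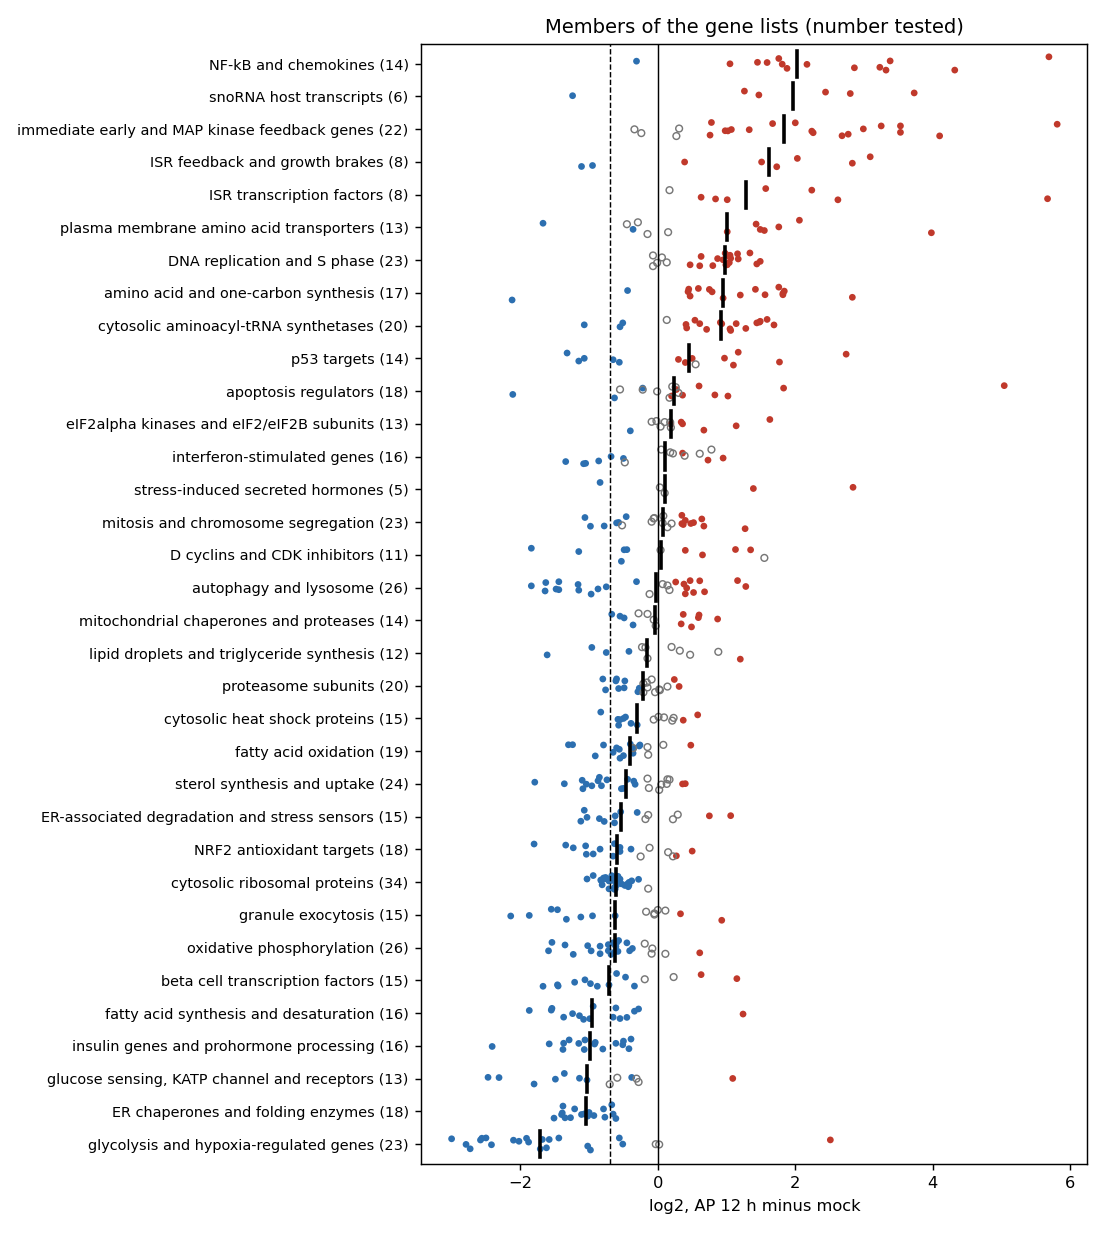
Log2 difference, AP 12 h minus mock, of each tested member of the 34 gene lists, with the number tested in brackets and the lists ordered by their median (black bar). Filled red points rose, filled blue points fell and open points did not pass the test, and the dashed line at -0.70 is the value that becomes 0 with spike-in scaling. The medians run from 2.03 for NF-kB genes and chemokines to -1.71 for glycolysis and hypoxia-regulated genes.

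Beyond the lists, the largest rises among genes above background on all 4 arrays included histone genes and a gene of lipid storage. The replication-dependent histone genes H3c15, at 4.02 and 3.98 against -0.94 and -1.05 (5.0 ± 0.15), and H4c17, at 1.39 and 1.29 against -3.19 and -2.86 (4.36 ± 0.17), rose together. Histone genes have near-identical copies, so which copy gave the signal is uncertain. Anxa10, an annexin, rose by 4.61 ± 0.27, Tex16 by 4.11 ± 0.12 and Soat2, which makes cholesteryl esters, by 4.07 ± 0.15. The olfactory receptor pseudogene Olfr1372-ps1 rose by 4.32 ± 0.10. Outside the hypoxia genes, the largest falls were those of Olfr1295 (-3.78 ± 0.16), Aco1, the cytosolic aconitase that also regulates iron (-3.44 ± 0.17), Hba-a2 (-3.23 ± 0.24), Lyve1 (-3.22 ± 0.12), S100a4 (-3.11 ± 0.13), Olfr700 (-3.11 ± 0.13) and Zfhx2os (-3.0 ± 0.27). Hba-a2 has a near-identical copy, and Zfhx2os is annotated antisense to another gene.

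Of the 15821 changed entries, 1278 were above background on no mock array and 530 on no AP 12 h array, and an entry dim in both groups counts in each. The largest bounds upward were at least 29.8-fold for Cxcl10, 26.7-fold for the growth factor gene Bmp2, which was at 0.84 and 0.57 at 12 h, 20.6-fold for Cd209c and 16.3-fold for Olfr1383. The largest downward were at least 13.5-fold for Tyrp1, a melanosome enzyme that was at -0.82 and -1.25 in mock, 9.67-fold for Gm10421, 6.54-fold for Olfr331 and 5.82-fold for Cacng5, all higher in mock.

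The 12 h arrays were next set against the other times. In the direct comparison of AP 12 h with AP 6 h, which uses no mock array, 3410 entries changed (14.6%), 1676 up (7.16%) and 1734 down (7.41%), of which 387 and 43 by at least 2-fold. This count rests on single arrays. It was 562 without AP 12 h replicate 2, 640 without AP 6 h replicate 1, 1087 without AP 6 h replicate 2 and 1756 without AP 12 h replicate 1, and it was 451 with spike-in scaling, where 417 were up and 34 down, so that 92.5% of calls were up, against 49.1% on the main scale. Of the 8 ISR transcription factors only Nupr1 was higher at 12 h than at 6 h (0.58, limma adjusted p = 0.037). Of the glycolysis and hypoxia list 10 of 23 were lower and none higher at 12 h, and the falls at 12 h against 6 h were 0.90 for Bnip3, 0.71 for Aldoc and 0.63 for Pdk1. Of the fatty acid synthesis list 7 of 16 were lower and none higher, with Scd2 at -0.57, and of the sterol list 7 of 24 were lower and none higher.

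Among genes that changed against mock, those picked as highest at 12 h relative to 6 h were dim on both AP 6 h arrays and on both mock arrays. As bounds, BC061237 was at least 7.65-fold higher at 12 h than at 6 h, Flt1 at least 5.35-fold, Bmp4 at least 2.41-fold, Chrm1 at least 2.35-fold and Krt75 at least 2.3-fold. Flt1, Bmp4, Chrm1 and Krt75 were also dim on both AP 24 h and both AP 48 h arrays. Among the mock and AP groups, these genes thus passed the filter for testing only through AP 12 h. That they are high at 12 h is part of how they were picked. H1f3, a linker histone gene, was among the lowest at 12 h relative to 6 h (-1.97), and Olfr330 and Ucn3 were dim at both times.

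Between 12 and 24 h, on the same slide, 6422 entries changed (27.4%), 3495 up (14.9%) and 2927 down (12.5%) in AP 24 h. The count was 3575 without AP 12 h replicate 2, 3712 without AP 12 h replicate 1, 4175 without AP 24 h replicate 2 and 1777 with spike-in scaling, where 1332 were up and 445 down, so that 75% of calls were up, against 54.4% on the main scale. Of the 8 ISR transcription factors 5 were higher at 24 h and none lower. Ddit3 (0.72), Atf3 (0.53), Nupr1 (0.77), Jdp2 (0.47) and Cebpb (0.38) were higher at 24 h than at 12 h, as was Ppp1r15a (1.28), and Chac1 (-0.38) was lower. Of the aminoacyl-tRNA synthetases 11 of 20 were higher and none lower.

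Of the 18 ER folding genes, 14 were higher at 24 h than at 12 h and none lower, with a median difference of 0.51, as for Calr (0.87), P4hb (0.52) and Pdia3 (0.50). Relative to the mean of the mock arrays the list's median was -1.06 and -1.07 on the AP 12 h arrays and -0.49 and -0.53 on the AP 24 h arrays. In the beta cell factor and insulin lists 1 of 15 and 1 of 16 members were higher at 24 h and 3 and none lower. Of the NF-kB and chemokine list 3 of 14 were lower and none higher, with Ccl2 at -1.68.

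Among the largest rises at 24 h over 12 h were those of Gpnmb (4.06), Lcn2 (3.66), Lgals3 (3.51) and Tff1 (3.28), and Cd96, dim on both AP 12 h arrays, was at least 4.55-fold higher at 24 h. Gpnmb, a lysosomal glycoprotein, was at -2.81 and -2.69 at 12 h against -4.17 and -3.65 in mock. Lcn2, a siderophore-binding protein, was at -1.55 and -1.25 against -2.73 and -2.30. Lgals3 (galectin 3) was at -0.93 and -0.44 against -2.37 on both mock arrays. Their rises at 12 h, of 1.16 ± 0.23, 1.11 ± 0.17 and 1.69 ± 0.17, were smaller than those from 12 to 24 h. The genes picked as lowest at 24 h were dim in mock and on both AP 24 h arrays. As bounds, Mfap4 was at least 9.16-fold lower at 24 h than at 12 h, Gm10375 at least 7.89-fold, BC061237 at least 6.68-fold, 4921504E06Rik at least 3.69-fold and Pappa at least 3.32-fold. BC061237, 4921504E06Rik and Pappa were also dim on both AP 6 h arrays. For all of these genes, being higher at 12 h than in mock and at 24 h is part of how they were picked.

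At 48 h 13940 entries differed from 12 h (59.6%), 7536 higher (32.2%) and 6404 lower (27.4%) in AP 48 h, and 8506 with spike-in scaling, where 3115 were higher and 5391 lower, so that 36.6% of calls were higher, against 54.1% on the main scale. The AP 48 h arrays lay on another slide than the AP 12 h arrays, so slide and time cannot be told apart here. Of the mitosis list 19 of 23 were lower at 48 h than at 12 h and none higher, with a median difference of -0.77, and of the replication list 15 of 23 were lower and 2 higher. Of the NF-kB and chemokine list 12 of 14 were lower and none higher, and of the ER chaperones 16 of 18 were higher and none lower. Among the largest rises at 48 h over 12 h were those of Lcn2 (5.73), Gpnmb (5.67), Lgals3 (5.41) and Tmem140 (5.49), the last above background on 1 of 2 AP 12 h arrays, and Cd96 was at least 14.1-fold higher at 48 h. Fst (-3.49) and Tex16 (-3.46) were among the largest falls, and Flt1, Lrtm2 and Sult1d1, dim on both AP 48 h arrays, were at least 5.21-fold, 3.03-fold and 2.91-fold lower at 48 h. Flt1 was also dim in mock and at 6 and 24 h. Among the mock and AP groups it passed the filter only through AP 12 h, so its fall is part of how it was picked. The plot of list medians by time places the 12 h arrays within this course.

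**Figure D5:**
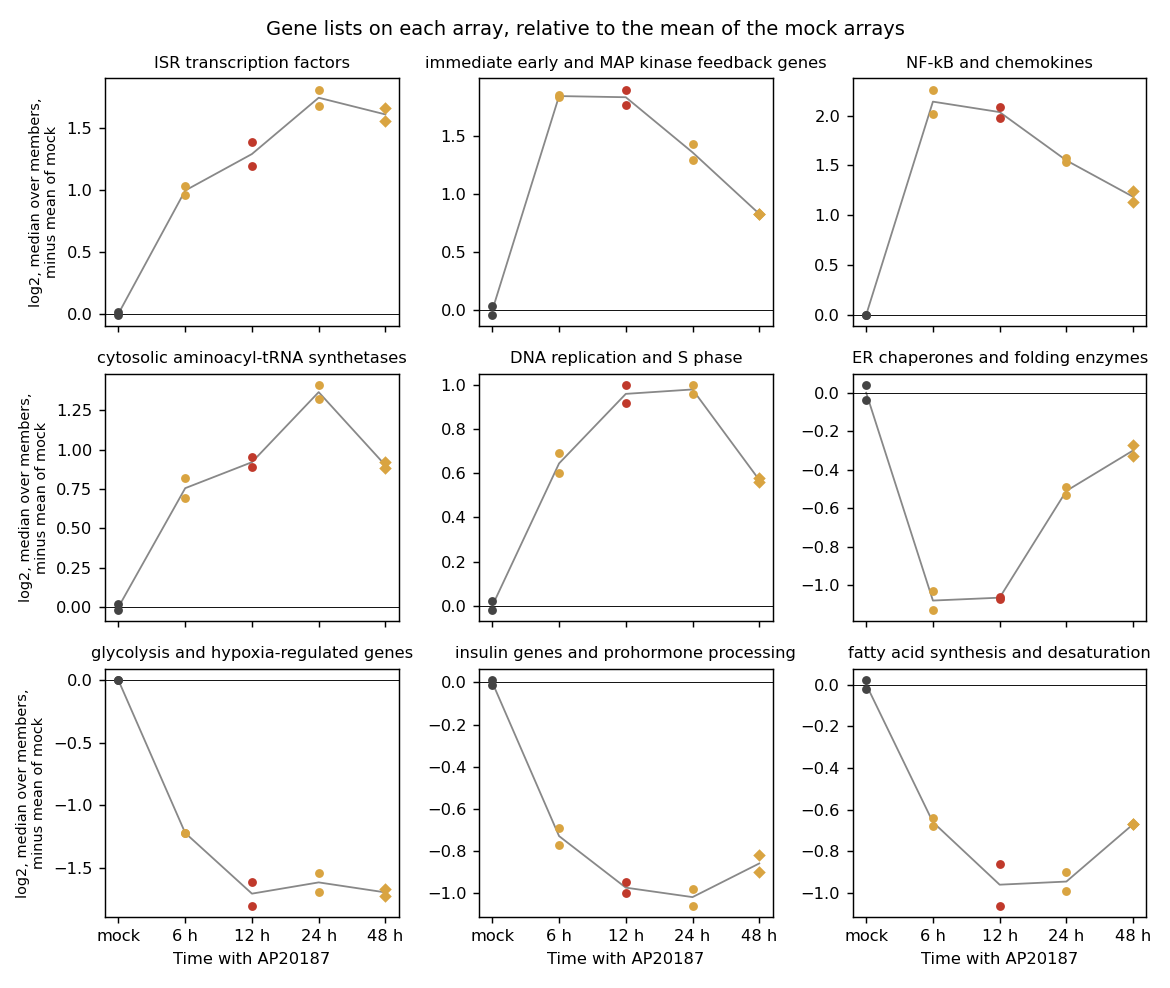
Median over the tested members of 9 gene lists of the log2 difference from the mean of the 2 mock arrays, for each array, with mock in grey, AP 12 h in red and the other times in yellow, and the line through the mean of the 2 arrays. Diamonds mark the 48 h arrays, which lay on another slide than the rest. The ER chaperone list is lowest at 6 and 12 h, near -1.06 to -1.07 on the 12 h arrays, while the insulin list stays low at 24 h.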

How the data were processed

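RNA of MIN6m9 cells was measured on 1-colour Agilent mouse arrays labelled with Cy3. The deposited intensity values are the processed signals of Agilent Feature Extraction 10.7.1.1, per the file headers and the submitters' processing notes, with background already subtracted. The authors also deposited log2 values, which equal the log2 processed signal minus the 75th percentile of the array minus a baseline for each probe of unstated origin. From the processed signals, outlier and control spots were left out, spots of a probe were averaged, log2 was taken and the array's 75th percentile subtracted. Of 55681 probes 26582 carry a gene symbol and 29099 none, and for each symbol the probe with the highest mean was kept. Entries were tested if each array of some group (of 6) had them well above background. One model with a coefficient per group was fitted to 12 arrays with limma 3.58.1 in R 4.3.3 (lmFit and eBayes), with Benjamini-Hochberg adjustment over all 23402 entries and a threshold of 0.05, and the procedure was tested on simulated data. Errors beside changes are standard errors of the fit. Where the text leaves it out, the adjusted p of a change said to have risen or fallen is under that threshold. The arrays of mock and of AP 6, 12 and 24 h lay on 1 slide, those of wild-type mock and AP 48 h on another.

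The genes named are Eif2ak3 and the insulin genes, up to 5 called members of each list with the largest change (all of a list of 8 or fewer), the 12 largest rises and falls above background on all 4 arrays, the 4 largest bounds each way and the 5 largest rises and falls between times. The comparison, the lists and the motifs were chosen with earlier results of these data known. Promoter windows are from RefSeq (GRCm38.p6), which was used for no other coordinates. Same-numbered arrays of mock and AP 12 h did not deviate together (correlation -0.01), so the numbers were not taken to pair them. Alternatives were quantile normalization, normexp on the median intensities with an offset of 50, spike-in scaling on 7 of 10 control probes, the authors' deposited log2 values, other filters, probe rules and fits, and leaving out each array. Some genes that this rule picks are not reported here.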

Additional observations from a re-analysis of the deposited data

Results flagged for a closer look

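The times of AP treatment differed from each other by the direct test of the difference (limma, adjusted p under 0.05). Between AP 12 h and AP 6 h 3410 entries differed, between AP 24 h and AP 12 h 6422, and between AP 48 h and AP 12 h 13940, the last across slides, so that slide and time cannot be told apart. Some entries were called in opposite directions against the same mock arrays at both times. Of the 23402 entries tested, there were 95 such entries for 12 and 6 h, 235 for 24 and 12 h and 1589 for 48 and 12 h. Groups of 2 arrays allow no test for a single outlying sample.

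Named genes, in log2 difference of AP 12 h over AP 6 h, were in the first set, with Chrm1 at 2.94, Bmp4 at 2.88, Gpnmb at 1.98 and Amy2a5 at 1.19. Chrm1, Bmp4 and Amy2a5 were dim on both AP 6 h arrays, where their bounds are at least 2.35-fold, 2.41-fold and 1.82-fold, and Gpnmb was above background on 1 of 2. Chrm1 and Bmp4 were also dim on both arrays at 24 h and at 48 h. Of the AP groups, only AP 12 h let these 2 genes pass the filter. For AP 24 h over AP 12 h these were Cd96 at 3.79, a fitted value and not a bound since the gene was dim on both AP 12 h arrays (at least 4.55-fold), and Plin2, the lipid droplet coat, at 1.94. For AP 48 h over AP 12 h the higher ones were Cd96 at 5.42 (at least 14.1-fold as a bound), Plin2 at 3.34, the hormone gene Ppy at 2.10 and Bst2 at 1.67. The lower ones were Lrtm2 at -3.79, Fst at -3.49, Sult1d1 at -3.27, Chrm1 at -2.89, the beta cell factor gene Hnf4a at -2.02, Btg2 at -1.55 and Nck1 at -0.71. Lrtm2, Sult1d1 and Chrm1 were dim on both AP 48 h arrays, so that their bounds are at least 3.03-fold, 2.91-fold and 2.28-fold lower at 48 h.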

How the results depend on the processing

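The count of 15821 changed entries at 12 h against mock stayed within 1.5 times under each alternative run, from 11541 with spike-in scaling to 21374 without the filter, and was 13811 to 14271 with 1 array left out. It was 15904 with the replicate number as a block, which moved no count by over 1.5 times (3060 for 12 against 6 h, 6094 for 24 against 12 h). The count for AP 12 h against AP 6 h was 451 with spike-in scaling, 1491 without the filter, 1795 on the slide's 8 arrays and 562 to 1756 with 1 array left out. For AP 24 h against AP 12 h it was 1777 with spike-in scaling and 3575 to 5719 with 1 array left out. For AP 48 h against AP 12 h it was 8506 with spike-in scaling. A fit of 24 against 12 h on the slide's 8 arrays was chosen after seeing the data, and 48 against 12 h on 1 slide could not be fitted. Of 34 list medians 16 were above 0, and 28 with spike-in scaling. With the shorter core motif the shares were 1.03% of all genes, 0.847% of those tested, 1.00% of rises, 0.826% of falls, 1.58% and 0.789% of those of at least 2-fold, and 0% of ER chaperones.

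Among the genes picked by the naming rule, those that turned sign with spike-in scaling were Eif2ak3 (0.67), Ins1 (0.19), Ins2 (0.31), Eif2s3x (0.29), Etfb (0.05), Hspd1 (0.02), Hspe1 (0.14), Dnajb1 (0.11), Hsp90ab1 (0.13), Cryab (0.15), Psmb4 (0.09), Psmb5 (0.10), Psmb2 (0.12), Plin2 (0.28) and Pecam1 (0.24), and of the others named Hspa5 (0.05), Cbs (0.25), Kars (0.15), Wars (0.19) and Cx3cl1 (0.38) did. With quantile normalization they were Ins1 (0.07), Ins2 (0.18), Stc2 (0.02), Hsp90ab1 (0.13), Psmb5 (0.02) and, outside the rule, Hspa5 (0.04), with normexp Ins1 (0.00), Ins2 (0.17) and Hsp90ab1 (0.11), and with the mean over probes Eif2s3x (0.22) and Itgam (-0.61). Spike-in scaling adds a constant to every difference by construction, but it shifts replicates unequally and so changes the spread too. How far each of these accounts for calls lost with spike-in scaling was not tested. For the other settings the cause was not tested. Dim probes give only bounds.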
